A study of Mus musculus with 6 samples.

Results

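The receptor chains for interleukin-18 (Il18r1, Il18rap), interleukin-12 (Il12rb1, Il12rb2) and interleukin-33 (Il1rl1) were examined together with the interleukin-1 decoy receptor (Il1r2), the interleukin-25 receptor chain (Il17rb) and the interleukin-6 receptor α chain (Il6ra). They were taken by gene symbol, and all 8 were found among the 55487 genes of the deposited count table. The RNA came from live cells sorted from the epithelial area of the small intestine of wild-type (WT) C57BL/6J mice. All carried CD3ε and CD45. B220-negative cells, labelled T cells, formed 1 group and B220-positive cells, labelled X cells, the other, with 3 libraries each. No treatment or age is given in the labels used here. Nor do they say whether each library had its own mouse, so every p-value here reflects the spread between the libraries, which may be technical.

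Interleukin-18 and interleukin-33 signal through paired receptors of the interleukin-1 family, in which a ligand-binding chain recruits an accessory chain and both pass the signal to the adaptor MyD88 through their intracellular TIR domains. The interleukin-12 receptor belongs to the class I cytokine receptors and signals through JAK2, TYK2 and STAT4, and in T cells and natural killer cells interleukin-12 and interleukin-18 are known for acting together to induce interferon-γ. The interleukin-33 and interleukin-25 receptors are best known from type 2 lymphocytes and, for interleukin-33, from regulatory T cells of the gut. The interleukin-6 receptor α chain is typical of naive and central memory T cells and needs the shared signalling chain gp130.

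Deposited counts summed to between 11320363 and 39591312 per library, the largest in B220+ replicate 2. Markers of the T cell label (the CD3 chains, Lck and Ptprc) summed to 6384 to 6663 CPM (counts per 1000000 counts of the TMM-scaled library size) in B220− and 6170 to 6600 CPM in B220+ libraries. Each library pools many cells, so that fewer cells of a type and less RNA per cell cannot be told apart in any value below.

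The mean of every receptor chain was lower in B220+ cells, but by very different amounts. Il6ra fell 77.8-fold, a size that moved by more than 1.5 times when B220+ replicate 2 or 3 was left out, and Il18r1 fell 30.9-fold. Il18rap, Il1r2 and Il17rb fell 5.78- to 6.38-fold, and Il12rb1 fell 1.33-fold. Of the 7 genes tested, 6 were called lower and 0 higher by edgeR's quasi-likelihood test (Benjamini-Hochberg adjusted p under 0.05 over all genes tested), where 5.56% of the 14722 genes tested were called lower and 5.58% higher. Il12rb2 was not called, and Il1rl1 had too few counts to pass the filter (edgeR's filterByExpr, minimum count 10). With the replicate number fitted as a block, which pairs same-numbered libraries, 7 chains were called lower, where 8.6% of genes were called lower and 8.85% higher. With DESeq2 6 were called lower, where 5.84% of genes were called lower and 6.12% higher. With no filter on low counts all 8 were called lower, where 8.41% of genes were called in either direction, 4.23% lower and 4.19% higher. Of the 6, 5 were over 4-fold lower, a size of decrease called in 1.13% of genes. The median log2 fold change (B220+ minus B220−) of the 7 tested chains was −2.67, and that of all tested genes −0.0074. In all 8 genes every B220+ library lay below every B220− library, an ordering found in 13.9% of tested genes.

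**Figure D1:**
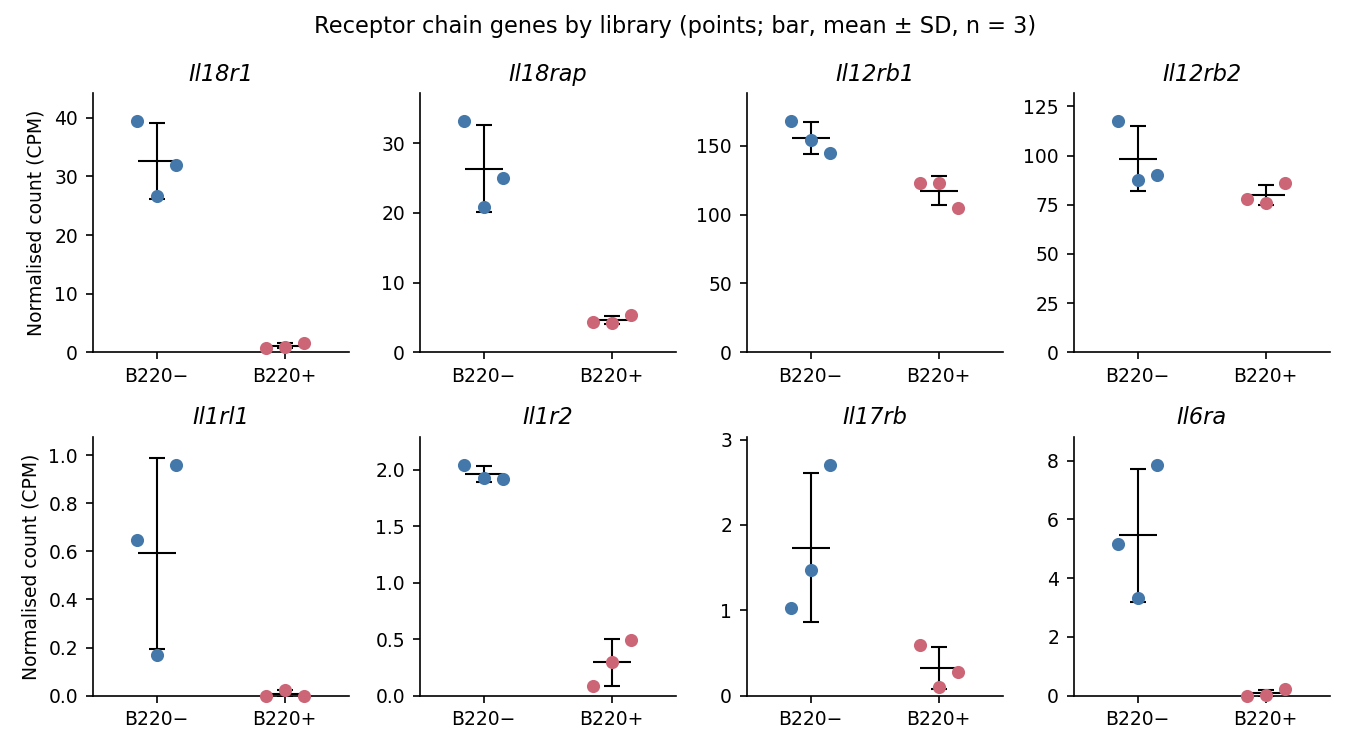
Normalised counts (CPM, linear axes from 0, a separate scale for each gene) of the 8 receptor chain genes in the 3 B220− and 3 B220+ libraries, as points with the mean ± SD. Il18r1 lies between 26.7 and 39.4 CPM in B220− and between 0.762 and 1.55 CPM in B220+ libraries, whereas Il12rb2 at 85.9 CPM in the highest B220+ library comes close to the lowest B220− library at 87.7 CPM.

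Il18r1 (ENSMUSG00000026070, mm10 chromosome 1, 40465552 to 40500854, plus strand) encodes the interleukin-18-binding α chain. It stood at 39.4, 26.7 and 31.9 CPM in B220− replicates 1, 2 and 3 and at 0.762, 0.930 and 1.55 CPM in B220+ replicates 1, 2 and 3. The groups were far apart, and the lowest B220− library was above the highest B220+ library by more than the whole range within either group. The log2 fold change was −4.95 with an SE of 0.23 (edgeR adjusted p = 4.19e-07), with 1569 counts summed in B220− and 68 in B220+ cells.

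Il18rap (ENSMUSG00000026068, chromosome 1, 40515362 to 40551705, plus strand) encodes the accessory β chain, without which interleukin-18 binds but does not signal. Its levels were 33.2, 20.9 and 25.1 CPM in B220− replicates 1 to 3 and 4.41, 4.17 and 5.30 CPM in B220+ replicates 1 to 3. B220+ cells thus kept a measurable level of the accessory chain in every library, with a log2 fold change of −2.53 and an SE of 0.18 (edgeR adjusted p = 6.41e-06).

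The ratio of the interleukin-18 receptor chains did not overlap between the groups. Per length of exonic sequence, B220− libraries held 1.67, 1.79 and 1.78 Il18r1 reads for each Il18rap read, and B220+ libraries held 0.254, 0.316 and 0.418 (0.5 was added to each count). The binding chain was the more abundant of the pair in every B220− library and the less abundant in every B220+ library. On the log2 scale the ratio was 0.80 ± 0.058 (SD, n = 3) in B220− and −1.63 ± 0.36 (SD, n = 3) in B220+ cells, a difference of −2.44. The exact two-sided permutation test gave p = 0.10, the smallest that 3 libraries against 3 allow (0.20 adjusted over the 2 ratios compared).

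**Figure D2:**
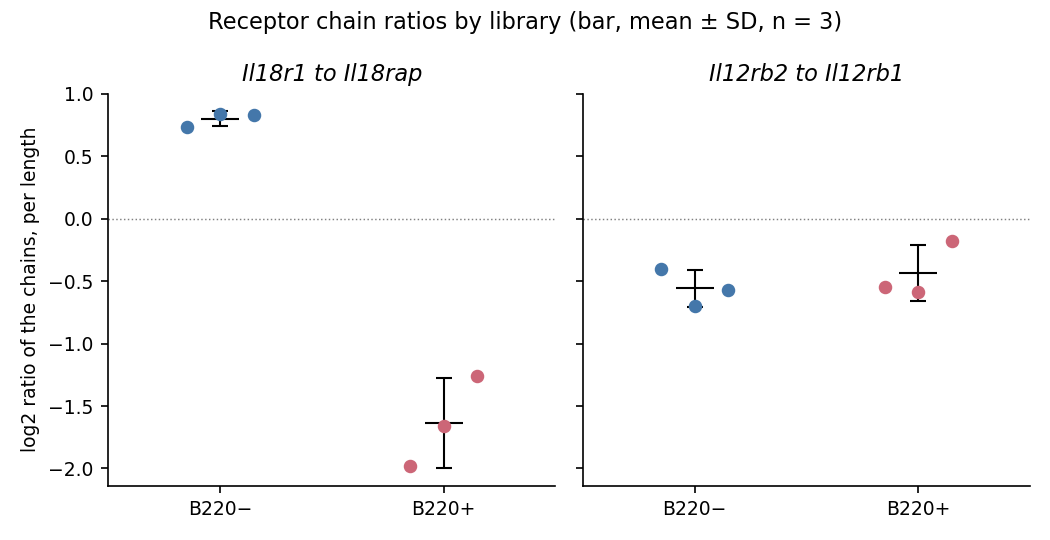
Log2 ratio of Il18r1 to Il18rap (left) and of Il12rb2 to Il12rb1 (right), per exonic length, in each library, with the mean ± SD (n = 3 per group) and a dotted line where both chains are equal. The Il18r1 to Il18rap ratio changes side of the line between the groups, from 0.80 to −1.63, and the Il12rb2 to Il12rb1 values of the groups overlap.

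Il12rb1 (ENSMUSG00000000791, chromosome 8, 70808449 to 70821424, plus strand) encodes the β1 chain that the receptors for interleukin-12 and interleukin-23 share. It was the most abundant of the 8 genes per length in both groups, and was lower in B220+ cells by a small margin, at 168, 154 and 145 CPM in B220− and 123, 123 and 105 CPM in B220+ replicates 1 to 3. The log2 fold change was −0.41 (SE 0.083, edgeR adjusted p = 0.00599), a 1.33-fold decrease.

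Il12rb2 (ENSMUSG00000018341, chromosome 6, 67291318 to 67376188, minus strand) encodes the β2 chain, which is specific to interleukin-12 among these ligands and carries the docking site of STAT4. It measured 118, 87.7 and 90.1 CPM in B220− and 77.9, 76.1 and 85.9 CPM in B220+ replicates 1 to 3. B220− replicate 1 stood above the rest, and the other B220− libraries were near the B220+ range. The log2 fold change of −0.30 (SE 0.11) was not called (edgeR adjusted p = 0.114, or 0.0458 with the replicate number as a block, 0.00441 with no filter on low counts and 0.0392 without B220− replicate 2). Of its 3794 exonic bases, 1519 (40.0%) are also exonic on the opposite strand in Serbp1, which had 56464 counts against 9927. Whether the counting used strand is not given in the sources used here, so the level of Il12rb2 carries that uncertainty.

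The ratio of the interleukin-12 receptor chains overlapped between the groups. The log2 ratio of Il12rb2 to Il12rb1 per length was −0.56 ± 0.15 (SD, n = 3) in B220− and −0.44 ± 0.22 (SD, n = 3) in B220+ cells (exact two-sided permutation p = 0.60, also 0.60 after adjustment). The difference of 0.12 turned to −0.0080 without B220+ replicate 3.

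Il1rl1 (ENSMUSG00000026069, chromosome 1, 40429570 to 40465415, plus strand) encodes ST2, the interleukin-33-binding chain. It had 12, 3 and 11 counts in B220− replicates 1 to 3 and 0, 1 and 0 in B220+ replicates 1 to 3, so few of its transcripts were detected in either group. Its level was 0.592 ± 0.398 CPM (SD, n = 3) in B220− cells, and a count of 0 allows up to 0.254 CPM in B220+ replicate 1 and 0.212 CPM in B220+ replicate 3. The depth-corrected ratio of B220− to B220+ was 35.8, with a 95% counting interval of 5.88 to 1468 (exact, counting error only). It did not pass the filter on low counts. Fitted without that filter it was called lower (edgeR adjusted p = 0.00116), as it was where the filter let it pass, without B220+ replicate 1 (0.0386) or 3 (0.0435).

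Il1r2 (ENSMUSG00000026073, chromosome 1, 40074079 to 40125231, plus strand) encodes a decoy receptor that binds interleukin-1 and lacks the signalling domain. It was steady at 2.04, 1.92 and 1.92 CPM in B220− and varied from 0.0847 to 0.494 CPM in B220+ libraries, with 94 counts over the former and 20 over the latter. B220+ replicates 1 to 3 held 1, 12 and 7 counts. The 0.0847 CPM of B220+ replicate 1 is thus 1 count, under the 0.254 CPM that a count of 0 allows there. The log2 fold change was −2.67 (SE 0.45, edgeR adjusted p = 0.00190). Neutrophils are a known source of this gene, and of 6 neutrophil markers, including S100a8 and S100a9, 4 were at 0 in every library and the 6 summed to at most 0.0873 CPM in any. The part of any cell type in the Il1r2 difference was not tested.

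Il17rb (ENSMUSG00000015966, chromosome 14, 29996135 to 30008896, minus strand) encodes the chain that binds interleukin-25. Counts were 19, 26 and 31 in B220− and 7, 4 and 4 in B220+ replicates 1 to 3, or 1.02, 1.47 and 2.71 CPM against 0.593, 0.101 and 0.283 CPM. The groups did not overlap, but the highest B220+ library lay less than 1 SD of the B220− group below the lowest B220− library. The log2 fold change was −2.66 with an SE of 0.62 (edgeR adjusted p = 0.0140), and this was no longer called without B220− replicate 3 (0.0797), B220+ replicate 2 (0.0957) or B220+ replicate 3 (0.0607). Its size also moved, to −3.35 without B220+ replicate 1 and −1.96 without B220+ replicate 2. It shares 141 exonic bases with the opposite-strand gene Actr8, which had 5143 counts against 91.

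Il6ra (ENSMUSG00000027947, chromosome 3, 89864059 to 89913196, minus strand) encodes the interleukin-6-binding chain and had the largest decrease of the tested chains. B220− replicates 1 to 3 held 96, 59 and 90 counts (5.16, 3.34 and 7.86 CPM), and B220+ replicates 1 to 3 held 0, 1 and 3. The gene was thus low but present in all B220− libraries and at or under the 3 counts that a count of 0 allows in all B220+ libraries. The log2 fold change was −6.28 (SE 0.63, edgeR adjusted p = 1.01e-04), but it was −5.45 without B220+ replicate 2 and −7.72 without B220+ replicate 3, so its size rests on few counts. The depth-corrected ratio was 84.4 (95% counting interval 32.5 to 312). The opposite-strand gene Gm42809, with 30 counts, shares 242 of its 8642 exonic bases.

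Per length, the order of levels in B220− cells was Il12rb1 at 37.9 ± 2.85 RPKM (CPM per kilobase of exonic length, SD, n = 3), Il12rb2 at 25.9 ± 4.36, Il18r1 at 6.78 ± 1.33, Il18rap at 3.91 ± 0.927, Il1r2 at 1.03 ± 0.037, Il6ra at 0.631 ± 0.263, Il17rb at 0.468 ± 0.235 and Il1rl1 at 0.0859 ± 0.0577 RPKM. Only the neighbours Il6ra and Il17rb had overlapping ranges there. In B220+ cells Il12rb1 (28.5 ± 2.55 RPKM) and Il12rb2 (21.1 ± 1.38 RPKM) again led, and the next gene, Il18rap, was at 0.685 ± 0.0879 RPKM. Below it Il18r1, Il1r2 and Il17rb (0.225, 0.154 and 0.0878 RPKM) overlapped with their neighbours in turn, and Il6ra (0.0091 RPKM) overlapped with Il1rl1 (0.0012 RPKM). The interleukin-12 chains led the order in both groups.

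Il1r2, Il1rl1, Il18r1 and Il18rap are neighbours in the interleukin-1 receptor cluster of chromosome 1, which spans 477.6 kb from the start of Il1r2 to the end of Il18rap and holds 6 protein-coding genes, all on the plus strand. The other two are Il1r1, the signalling interleukin-1 receptor, and Il1rl2, the interleukin-36 receptor. Along the chromosome, Il1r1 was called lower as well (mean 4.03 ± 1.40 CPM against 0.0822 ± 0.0886 CPM in B220+ cells, SD, n = 3 per group, log2 fold change −5.03, SE 0.52, edgeR adjusted p = 5.55e-05). Il1rl2, between Il1r1 and Il1rl1, was not called, at 12.9 ± 0.557 CPM in B220− and 10.8 ± 0.753 CPM on the B220+ side (log2 difference −0.24, SE 0.13, edgeR adjusted p = 0.293). Even so, its highest B220+ library (11.7 CPM) lay below its lowest B220− library (12.2 CPM). The gene before the cluster, Map4k4, was at 237 ± 12.3 and 242.7 ± 7.003 CPM (edgeR adjusted p = 0.830), and the gene after it, Slc9a4, had 0 counts. Of the 6 genes, Il1rl2 was the one tested and not called.

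**Figure D3:**
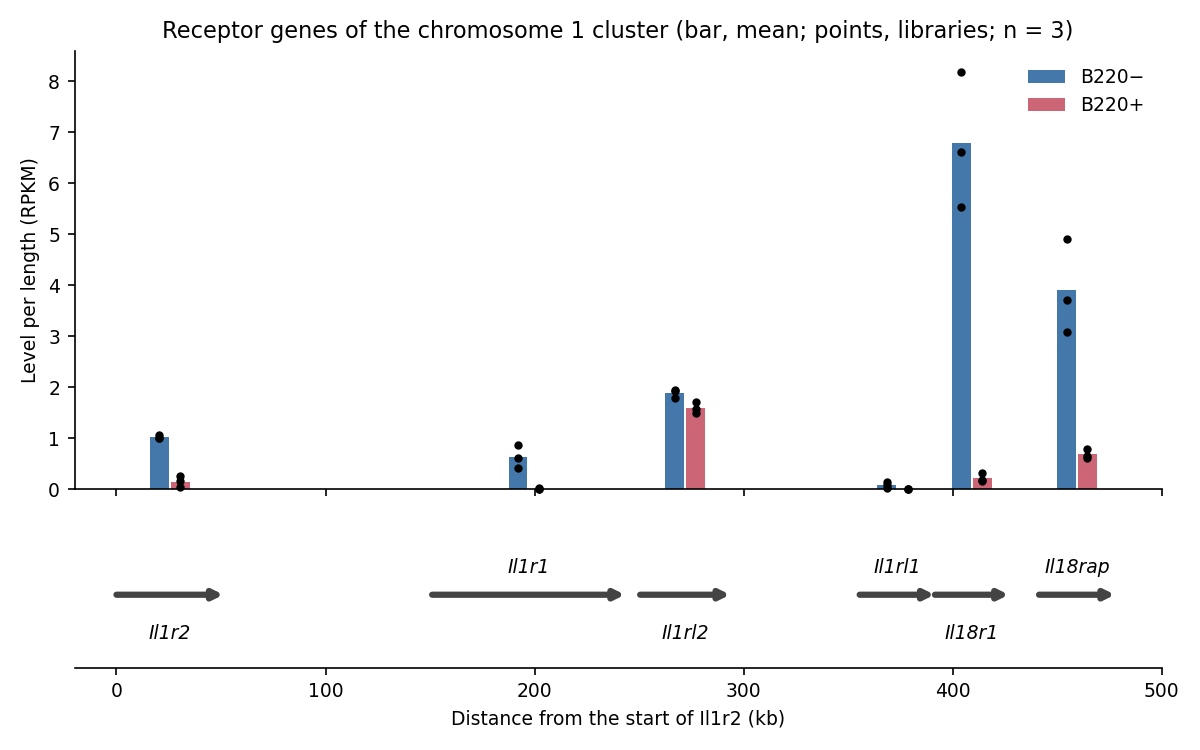
Level per exonic length (RPKM; bars, group means; points, libraries, n = 3) of the 6 receptor genes of the chromosome 1 cluster above a map of the genes to scale, with distance from the start of Il1r2 in kb and arrows in the direction of transcription. Il1rl2, at 1.89 RPKM in B220− and 1.59 RPKM in B220+ cells, has the smallest fold change of the cluster. Its B220+ libraries still all lie below its B220− libraries.

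Promoter sequences from RefSeq (GRCm38.p6) were found for 7 of the 8 genes, in 10 windows, and the 250 bases before each start were searched on both strands for 4 motifs, whose matches do not overlap in the stretches shown. The STAT motif was TTCNNNGAA, held by 7.02% of 32851 promoter windows. The T-box motif was GGTGTG, held by 16.3%. The motif of GATA factors was AGATAA, held by 9.99%. The motif of ROR receptors was AGGTCA, held by 14.0%. Shown are the stretches before the deposited starts of both interleukin-18 receptor genes, which both fell, of Il6ra, which fell most, and of Il12rb2, which was not called. That of Il18r1 (chr1:40465416-40465551, plus strand) is the whole 136 bases between the end of Il1rl1 and its start, that of Il18rap is chr1:40515112-40515361 (plus strand), that of Il6ra is chr3:89913197-89913446 (minus strand, inside the noncoding gene Gm42809) and that of Il12rb2 is chr6:67376189-67376438 (minus strand). Capitals mark matches.
Il18r1: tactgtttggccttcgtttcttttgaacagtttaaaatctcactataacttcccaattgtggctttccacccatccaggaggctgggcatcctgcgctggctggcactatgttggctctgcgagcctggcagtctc
Il18rap: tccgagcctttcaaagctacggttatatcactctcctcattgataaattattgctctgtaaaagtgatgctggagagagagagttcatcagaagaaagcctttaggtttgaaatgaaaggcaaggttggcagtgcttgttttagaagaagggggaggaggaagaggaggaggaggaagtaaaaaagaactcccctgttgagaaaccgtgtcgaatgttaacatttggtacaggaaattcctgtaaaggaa
Il6ra: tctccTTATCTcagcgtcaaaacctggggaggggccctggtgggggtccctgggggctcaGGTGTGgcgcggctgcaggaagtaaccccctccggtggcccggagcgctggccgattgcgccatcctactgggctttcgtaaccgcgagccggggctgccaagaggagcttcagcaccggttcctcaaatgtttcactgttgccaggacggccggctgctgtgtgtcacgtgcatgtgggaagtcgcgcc
Il12rb2: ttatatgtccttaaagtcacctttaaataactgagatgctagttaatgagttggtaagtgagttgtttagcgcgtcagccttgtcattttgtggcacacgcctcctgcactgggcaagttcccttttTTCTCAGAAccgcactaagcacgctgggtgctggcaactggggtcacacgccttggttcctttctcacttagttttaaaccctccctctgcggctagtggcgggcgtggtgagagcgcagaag
Neither interleukin-18 receptor window at the deposited start held any of the motifs. Il6ra held the GATA factor letters from 245 and the T-box letters from 190 bases before its start, and Il12rb2 held the STAT letters from 123 bases before its start. A further Il18r1 window, at a start 454 bases downstream, held the STAT letters at 2 places, and 1 at a start 69 bases downstream held the T-box letters. In the windows not shown, that of Il1rl1 at its deposited start held the GATA factor letters, and that of Il1rl1 at a start 10059 bases downstream held the GATA factor and the ROR letters. The Il17rb window held the T-box letters, and the Il1r2 window, at a start 12014 bases downstream of the deposited one, held the STAT letters. These are matches of letters only.

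Other receptor chains of the same families include the partners of these genes. Their calls are read against the 5.58% of all tested genes called higher and the 5.56% called lower. Of the other interleukin-1 family chains 4 of 6 were tested and only Il1r1 was called. Il1rap, the accessory chain that interleukin-33 and interleukin-1 receptors share, measured 12.2 ± 1.78 CPM in B220− against 13.0 ± 1.04 CPM in B220+ cells (n = 3 per group, edgeR adjusted p = 0.793). Of 12 chains of the interleukin-12, interleukin-6 and interleukin-17 families 8 were tested, with 1 called higher and 3 lower, at a median log2 fold change of −0.40. Il6st, which encodes gp130, rose from 116 ± 13.9 to 190 ± 16.8 CPM (n = 3 per group, log2 fold change 0.71, edgeR adjusted p = 3.80e-04), whereas its partner Il6ra fell.

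Il17ra, the signalling chain used by interleukin-25 and interleukin-17, fell from 78.0 ± 8.98 to 50.9 ± 3.75 CPM (n = 3 per group, log2 fold change −0.61, edgeR adjusted p = 9.02e-04). Il23r, which pairs with Il12rb1 to form the interleukin-23 receptor, had 79 counts in B220− and 2 in B220+ cells (ratio corrected for depth 54.4, 95% counting interval 14.6 to 457). Il17re, the receptor for interleukin-17C, had 61 and 1 (ratio 84.0, interval 14.5 to 3373). Both were called lower (edgeR adjusted p = 1.65e-04 and 2.44e-04). Of the chains that pair with Il12rb1, the one for interleukin-23 was called lower and the one for interleukin-12 was not; the difference between them was not tested.

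**Figure D4:**
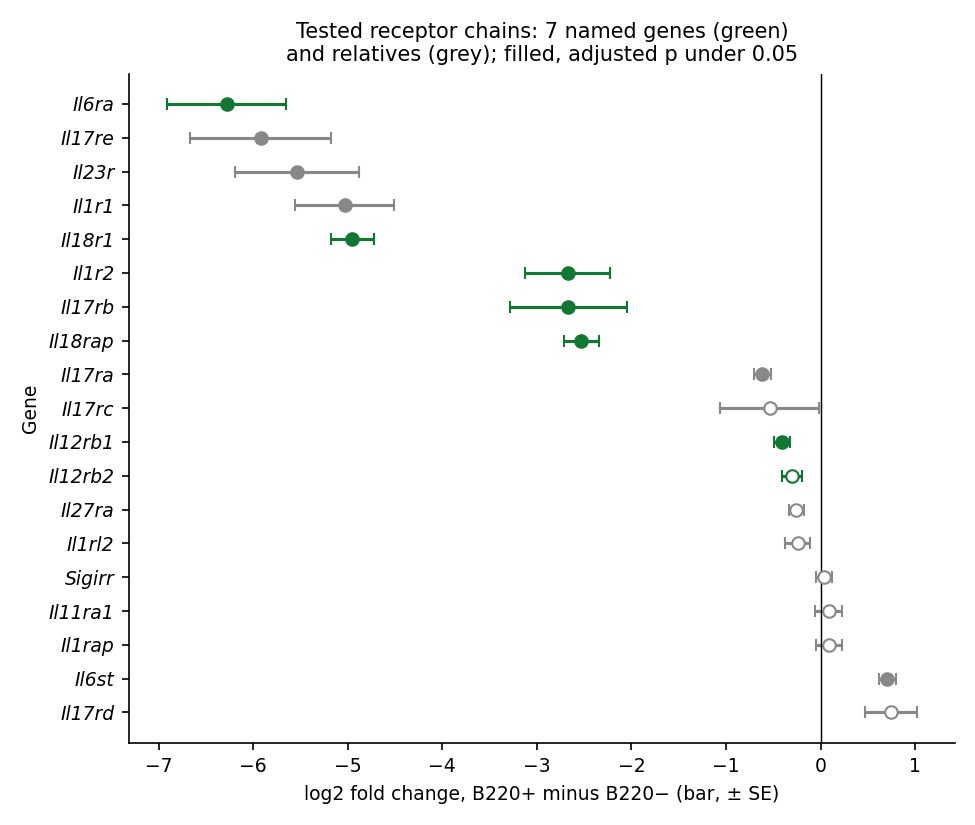
Log2 fold change (B220+ minus B220−, ± SE) of the 7 tested receptor chains of the set (green) and the 12 tested relatives (grey), in order, with filled symbols for an edgeR adjusted p under 0.05. Il6ra is at −6.28 at one end, and Il17rd, which was not called, is at 0.75 at the other. Il6st at 0.71 is the only filled symbol above 0.

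Ligand transcripts were scarce. Of 17 ligands and antagonists listed, 14 matched the table and 4 of these had no count in any library. Il18 had 12 counts in all 6 libraries (4 in B220− and 8 in B220+), Il33 had 4 and Il12a had 6. Il18bp, a secreted antagonist of interleukin-18, was the only one with enough counts to test, at 6.67 ± 2.20 and 6.03 ± 1.74 CPM (n = 3 per group, edgeR adjusted p = 0.850), with 80 exonic bases shared with the abundant opposite-strand gene Numa1.

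The signalling genes behind these receptors are read against the 11.1% of all tested genes called in either direction. For the interleukin-1 receptor family and Il17rb, 1 of 15 tested genes was called higher and 1 lower, a share near that background, at a median log2 fold change of 0.0066. The kinase gene Irak2 rose from 78.3 ± 7.92 to 109 ± 3.91 CPM (n = 3 per group, edgeR adjusted p = 0.00206), and Traf3ip2, the adaptor of interleukin-17 family receptors, fell 1.28-fold (edgeR adjusted p = 0.00936, or 0.0520 without B220+ replicate 3). For the interleukin-12 and interleukin-6 receptors, 1 of 9 was called higher and 2 lower, at a median of −0.039. Stat4 was at 77.5 ± 1.27 and 89.3 ± 5.00 CPM (n = 3 per group) and was not called (edgeR adjusted p = 0.0922, or 0.0277 with the replicate block). Stat3, the main factor of interleukin-6 and interleukin-23, rose 1.24-fold, and Cish, a feedback inhibitor of cytokine receptors, fell 1.84-fold (edgeR adjusted p = 0.0103 and 1.39e-05).

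Of 12 transcription factors known for regulating these receptors, 1 was called higher and 5 lower, at a median log2 fold change of −0.18. Of all tested genes 5.58% were called higher and 5.56% lower. Maf fell 10.8-fold, Rora 3.43-fold and Eomes 2.43-fold (edgeR adjusted p = 3.04e-04, 4.19e-07 and 0.00363). Calls of Foxp3 (lower) and Ikzf2 (higher) and the following value were picked after the values were seen. Tbx21, which encodes T-bet, an activator of Il12rb2 and Il18r1 in T helper 1 cells, was at 183 ± 10.2 and 183 ± 14.5 CPM (n = 3 per group, edgeR adjusted p = 0.979).

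Among 11 cytokines and effector genes known to be induced through these receptors, 7 were tested, 1 was called higher and 5 lower, at a median of −1.43. The shares over all tested genes were 5.58% higher and 5.56% lower. Il17a had 1057 summed counts in B220− and 3 in B220+ cells and Il22 had 394 and 2, with ratios corrected for depth of 485 (95% counting interval 166 to 2357) and 271 (74.6 to 2249). Tnf fell 3.01-fold (edgeR adjusted p = 0.0474, which ranged from 0.119 to 0.164 in 5 of the alternatives). Csf2 rose 5.14-fold and shares 96 exonic bases with the opposite-strand gene Gm12223. The other two genes called lower, outside the rule for named genes and chosen after their values were seen, were Areg and Ifng, the latter falling from 90.1 ± 7.03 to 35.9 ± 3.92 CPM (n = 3 per group, edgeR adjusted p = 3.21e-06).

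Several of these genes share exonic bases with another gene model. Their counts depend on how reads on the shared bases were assigned, which is not given in the sources used here. On the same strand this holds for Ifng with Gm49751, Foxp3 with Flicr and Stat4 with Gm28177 (1033 of 3872 exonic bases of Stat4). On the opposite strand it holds for Cish with Gm17041 and Gm17040, Irak2 with Gm43963, Traf3ip2 with E130307A14Rik and Il1rap with Gm20319. It also holds there for Foxp3 with Ccdc22, Ppp1r3f and Gm36995, Stat3 with Stat5a, Maf with Gm15655, Rora with Gm15511 and Ikzf2 with Gm29114.

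By root mean square distance between log2 CPM profiles over the 6 libraries, each centred on its mean, the genes nearest to Il18r1 were A630023P12Rik (0.269), 5830411N06Rik (0.290) and the lymph node homing receptor Ccr7 (0.304). Near to Il6ra were Hlf (0.243) and 5830411N06Rik (0.362), and nearest to Il1r2 were Nectin1 (0.126), Arhgef11 (0.174) and Blk (0.236). Their log2 fold changes lay between −6.23 and −2.66.

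The marker lists of other lymphocyte types did not all go the same way. Beside all marker counts here and in the next paragraph, 5.56% of all tested genes were called lower and 5.58% higher. Of 5 CD4 helper T cell markers 4 were called lower, and they summed to 290.2 to 445.4 CPM in B220− and 62.7 to 69.3 CPM in B220+ libraries, with Cd4 at 177 ± 46.7 and 7.62 ± 0.837 CPM (n = 3 per group). Of 6 naive T cell markers 5 were called lower (310.7 to 375 CPM against 182 to 299.7 CPM). These sums lay mostly in Tcf7 (253.8 and 240.1 CPM), the 1 not called. The 5 called fell between 4.65-fold (Lef1) and 145-fold (Igfbp4). Of 5 regulatory T cell markers 3 were called lower and 1 higher (567 to 651.5 CPM against 704.7 to 741 CPM). The rise of that sum lay mostly in Ikzf2 (275.5 and 549.7 CPM), the 1 called higher. Foxp3, Il2ra and Ctla4 were called lower, and Tnfrsf18 was not called. Of 6 markers of type 2 innate lymphocytes, which carry Il1rl1 and Il17rb, 3 were called lower (126 to 146 CPM against 104 to 115 CPM) and Il5 was at 0 in every library. Of 4 markers of invariant natural killer T and MAIT cells 1 was called lower and 1 higher (5.60 to 10.1 CPM against 11.7 to 16.1 CPM), and of 5 natural killer cell markers likewise 1 and 1 (51.8 to 62.1 CPM against 69.7 to 72.3 CPM). Their part in the receptor differences was not tested.

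Of 8 mast cell markers, whose cells carry Il1rl1, 1 was called lower, Mcpt1, and the sum of 51.8 to 110.2 CPM in B220− and 203 to 318 CPM in B220+ libraries lay mostly in Kit. Mcpt1 went from 238 to 27 summed counts, Cpa3 had 180 in B220− and 250 in B220+ cells and Hdc had 73 and 83, neither of them called, while the untested Mcpt2 had 85 and 16, Gata2 had 3 and 6, Fcer1a had 2 and 3 and Ms4a2 had 1 and 0. Of 8 macrophage and dendritic cell markers 1 was called lower (254 to 325.5 CPM against 386 to 538 CPM), of 6 B cell markers 1 lower (25.1 to 33.3 CPM against 30.4 to 34.6 CPM), and of 8 epithelial markers 0 (35.5 to 63.6 CPM against 79.6 to 95.9 CPM). These sums lay mostly in Itgax (277 and 431 CPM), Cd79b (27.4 and 31.6 CPM) and Epcam (35.9 and 75.2 CPM), none of them called. Of 6 T cell markers 1, Cd247, was called lower. The part of these cells in the receptor differences was not tested.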

How the data were processed

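RNA of 3 B220− and 3 B220+ samples was sequenced, per the labels' protocols, from strand-marked libraries of the NEBNext Ultra II Directional kit. The authors deposited raw read counts of genes, made with Trimmomatic 0.38, HISAT2 2.1.0 and featureCounts 1.6.3 on mm10, per the submitters' processing notes. Whether strand was used in counting, and which annotation, is not given in the sources used here. Library totals ranged from 11320363 to 39591312 counts. Exonic lengths are from GENCODE M21, whose coordinates equal those of 98.73% of the deposited genes. Groups and replicate numbers came from the sample titles.

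All 14722 genes passing filterByExpr (minimum count 10, minimum total 15) were fitted with edgeR 4.0.16 in R 4.3.3 (trimmed-mean scaling, robust quasi-likelihood F test, group alone). Fold changes are on the log2 scale, CPM use the scaled library sizes, and an SE is the absolute log2 fold change over the square root of F. On 3 simulated data sets of 14722 genes the test recovered 52% of genes changed 1.5-fold, 72.7% changed 2-fold and 94.7% changed 4-fold, and 7.62% of calls were false. Far fewer genes were changed in the simulations than were called in the data, so the false share need not carry over. Alternatives were another scaling (RLE), no filter, DESeq2 1.42.0, no robust option, the replicate block and leaving out each library.

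Within each group every pair of libraries differed beyond counting error (chi-square over degrees of freedom 6.86 to 14.9). Same-numbered libraries deviated together from their group means (correlations 0.295, 0.246 and 0.272 across genes, against −0.203 to −0.0675 for other pairs). The replicate block therefore took the numbers to pair them. This pairing rests on the data, not the labels, and the deposited column names carry other numbers. The main fit and the permutation tests did not use it. The genes, 7 pathway lists and 12 marker lists were chosen with earlier results of these data known. Named were all 8 receptor chains, up to 4 called genes of each pathway list by size of change, 6 fixed partners, the genes of the chromosome 1 cluster and the 3 nearest profiles of the 3 called chains with the largest change. Some genes that this rule names are not reported here.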

Additional observations from a re-analysis of the deposited data

How the results depend on the processing

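The count of genes called rose from 1639 to 2569 with the replicate block and ranged from 969 (without B220+ replicate 2) to 1789 when 1 library was left out; it was 1029 without B220− replicate 3. The number of receptor chains called lower was 6, or 7 with the block, 8 when genes of low counts were kept, and 5 to 7 when 1 library was left out, and 0 were called higher in any of these fits. Il12rb2 became called without the filter (log2 fold change −0.30) and with the replicate block (−0.29), and ranged from −0.38 to −0.15 when 1 library was left out, called in 1 of those 6 fits. Il17rb ranged from −3.35 to −1.96 in those fits and was called in 3 of them; the cause was not tested. Il6ra ranged from −7.72 to −5.45 and was called in all 6. The block changed no other call among the 8 genes, and no fold change of a tested chain changed direction under any alternative. The Il18r1 to Il18rap difference ranged from −2.62 to −2.26. Counts of 0 to 7 in B220+ libraries limit the precision for Il1rl1, Il6ra and Il17rb, and counts of 1, 12 and 7 that for Il1r2.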
